A study of Mus musculus with 4 samples.

Results

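The transcripts described here encode the MCM helicase and the factors that license origins of DNA replication in mouse embryonic stem cells (ESCs). The members were the 10 genes Mcm2, Mcm3, Mcm4, Mcm5, Mcm6, Mcm7, Cdc6, Cdt1, Gmnn and Cdc45, found by Ensembl identifier among the 14533 genes of the deposited table, and 10 of 10 were listed and tested. RNA was sequenced from sorted ESCs in 2 conditions with 2 libraries each, and both conditions contained LIF. Serum ESCs grew in medium with serum. 2i ESCs grew in Ndiff 227 with CHIR99021, which inhibits GSK3, and PD0325901, which inhibits MEK. Cells had been adapted to their condition for over 20 days. The sample labels place the cells in late G1-phase, whereas the series description names early G1-phase, and the labels name no cell line. The study set its G1-phase gates with FUCCI reporters, fusions of fluorescent proteins to fragments of CDT1 and geminin that were expressed in R1 ESCs from the CAG promoter. It was not given whether these libraries came from reporter cells, and the part of reporter reads in the values of Cdt1 and Gmnn was not tested.

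Replication licensing takes place in G1-phase. The origin recognition complex marks an origin, and CDC6 and CDT1 then load the ring of MCM2 to MCM7 onto DNA as an inactive helicase. Geminin, the product of Gmnn, binds CDT1 and blocks further loading once S-phase has begun, and CDC45 joins the ring together with the GINS complex to make the active helicase. Many of these genes are known targets of E2F, the transcription factors that RB family proteins hold in check.

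Because many of these genes are known targets of E2F, the promoter letters that match its motif are shown for the members that hold a match. Promoter windows of 250 bases before to 50 bases after the annotated start were taken from RefSeq (build GRCm38.p6), and 8 of the 10 members had an entry. Mcm4 and Gmnn were not among these 8 members. The motif was searched on both strands as 4 words of 8 bases, TTTCCCGC, TTTCGCGC, TTTGCCGC and TTTGGCGC, and matches could overlap. Each line gives a stretch of 30 bases, 5′ to 3′ on the strand of the gene, with the matched bases in capitals.
Mcm3, chr1:20820265-20820294, minus strand: gGCGGGAAAacttgggaagtTTTGGCGCca
Mcm5, chr8:75109347-75109376, plus strand: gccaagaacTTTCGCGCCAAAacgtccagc
Mcm6, chr1:128359795-128359824, minus strand: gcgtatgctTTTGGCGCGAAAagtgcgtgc
Mcm6, chr1:128359734-128359763, minus strand: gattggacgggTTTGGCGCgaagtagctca
Mcm7, chr5:138172030-138172059, minus strand: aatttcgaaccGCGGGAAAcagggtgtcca
Mcm7, chr5:138171849-138171878, minus strand: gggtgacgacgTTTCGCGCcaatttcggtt
Cdc6, chr11:98908002-98908031, plus strand: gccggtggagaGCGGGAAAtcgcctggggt
Cdt1, chr8:122568035-122568064, plus strand: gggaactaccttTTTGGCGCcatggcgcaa

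Of the 9 promoter windows of members, 6 held at least 1 of the words, against 744 of all 32851 windows (2.26%). By gene, this was 6 of the 8 members and 2.60% of 27025 symbols. The motif was chosen because many of these genes are known targets of E2F, so these shares are a description. They were not tested, and the windows were not matched for base content. The word in Cdc6 began 138 bases before the start. In Mcm5 the pair of overlapping matches began 153 bases before the start, and in Mcm6 3 matches were found, the nearest of which began 47 bases before it. Other matches lay after the start, beginning at bases 20 and 39 in Mcm3 and at base 33 in Cdt1. Mcm7 had a match on each side, from 165 bases before the start and from base 17 after it. The windows of Mcm2 and Cdc45, and a second window of Mcm7, held none of the 4 words. A match is a description of letters, not evidence of binding.

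The libraries held 18939401 to 26570098 whole reads, and replicates of a condition stood well apart. Replicate 1 was separated from replicate 2 along the leading principal component, with 54.0% of the variance, and the conditions along the next, with 30.4%. The 10 most abundant genes took 17.5% to 50.6% of a library. The 8 ESC markers were all detected in each library, with summed levels of 57735 and 80849 normalized counts in the serum libraries against 71035 and 92748 in the 2i libraries. Of 8 fibroblast markers 3 were listed, with sums from 136 to 427, and Col1a2, Col3a1, Postn, Dcn and Lum were not among the genes listed. Of 8 primitive endoderm markers 4 were listed, with sums of 72.0 and 109 in the serum libraries against 332 and 256 in the 2i libraries, and none of these was at 0. Their part in the members' values was not tested. In these bulk samples, fewer cells of a type and less RNA per cell cannot be told apart. The study describes the libraries of a condition as biological replicates, but the labels do not name separate cultures. The p-values weigh a difference against the spread between these libraries, estimated in part from other genes.

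No member passed the test between serum and 2i ESCs. Cdc6 and Gmnn were the members with the largest differences, 2.84-fold and 2.08-fold higher in serum, and both had an adjusted p = 0.753 (limma on log2(normalized count + 1), Benjamini-Hochberg over 13005 genes). The call required an adjusted p under 0.05 and a 2-fold difference. It was met by 0 of 10 members in either direction, beside 0% of all genes tested for higher in serum and 0.0154% for higher in 2i. With the unadjusted p in place of the adjusted p, Cdc6 and Gmnn passed for higher in serum, 2 of 10 members beside 2.97% of all genes, and 0 of 10 passed for higher in 2i beside 3% of all genes. DESeq2 on whole reads called 0 of 10 members, beside 0.561% of all genes for higher in serum and 1.37% for higher in 2i. At its unadjusted p, 2 of 10 members were past the thresholds for higher in serum beside 4.56% of all genes, and 0 of 10 for higher in 2i beside 7.59%. The edgeR quasi-likelihood test on whole reads called 0 of 10 members, beside 0% of all genes in either direction, and at its unadjusted p 1 of 10 was past the thresholds for higher in serum, Cdc6, beside 2.21% of all genes, and 0 of 10 for higher in 2i beside 3.81%.

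**Figure D1:**
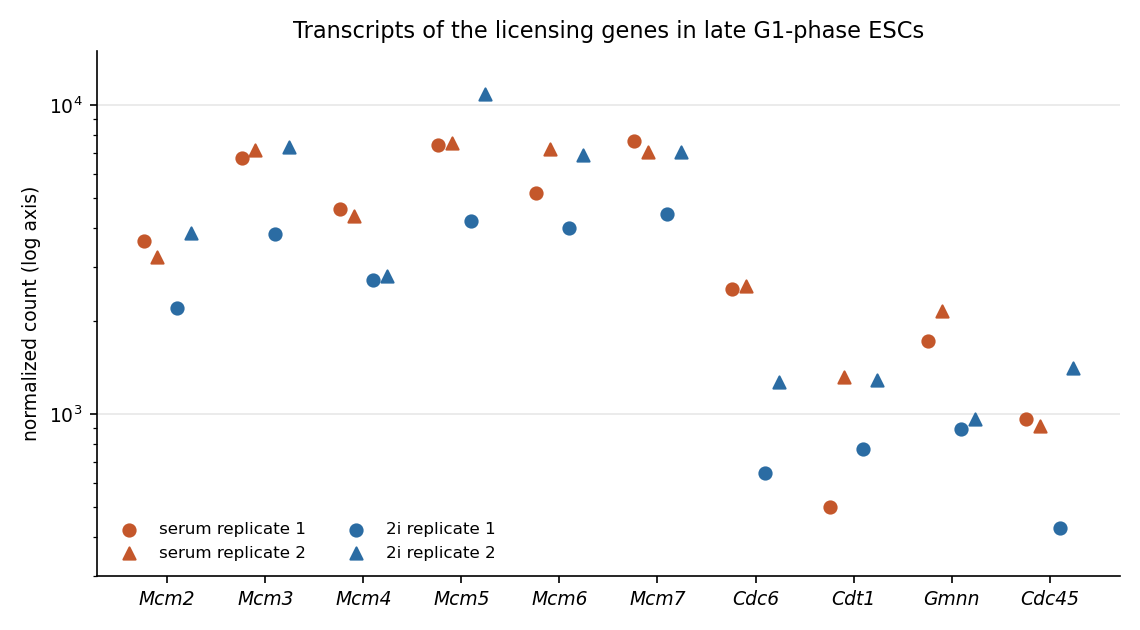
Normalized counts (log axis) of the 10 members in each of the 4 libraries, with orange for serum and blue for 2i ESCs, circles for replicate 1 and triangles for replicate 2. Both serum points lie above both 2i points for Mcm4, Cdc6 and Gmnn and barely so for Mcm7, while for the other members 2i replicate 2 lies within or above the serum range.

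The MCM2 to MCM7 subunits form the ring, and their transcripts were abundant in both conditions. Mcm5 (ENSMUSG00000005410, plus strand of mm9 chromosome 8, from 77633427 to 77652338) had 7426 and 7524 normalized counts in replicates 1 and 2 of serum, against 4204 and 10846 in those of 2i. The 2i libraries enclosed the serum libraries and lay 2.58-fold apart. The fitted log2 difference, serum over 2i, was 0.15 (SE 0.61, 95% interval -1.32 to 1.61).

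Mcm3 (ENSMUSG00000041859, minus strand of chromosome 1, from 20793055 to 20810359) had 6743 and 7178 normalized counts in the serum libraries against 3827 and 7337 in the 2i libraries. Mcm7 (ENSMUSG00000029730, minus strand of chromosome 5, from 138605811 to 138613650) had 7672 and 7065 in the serum libraries against 4433 and 7035 in the 2i libraries. For both genes 2i replicate 1 was low and 2i replicate 2 was close to the serum level. The log2 difference was 0.39 for Mcm3 (SE 0.53, interval -0.89 to 1.67) and 0.40 for Mcm7 (SE 0.50, interval -0.81 to 1.61). The Mcm7 groups did not overlap, by a margin of 7065 against 7035 normalized counts, and they overlapped under TMM, upper quartile and quantile scaling.

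Mcm6 (ENSMUSG00000026355, minus strand of chromosome 1, from 130228168 to 130256233) had 5179 and 7190 normalized counts in the serum libraries against 4001 and 6891 in the 2i libraries. Mcm2 (ENSMUSG00000002870, minus strand of chromosome 6, from 88833469 to 88848774) had 3638 and 3228 in the serum libraries against 2201 and 3855 in the 2i libraries. The groups overlapped for both genes. The log2 difference was 0.22 for Mcm6 (SE 0.52, interval -1.05 to 1.48) and 0.23 for Mcm2 (SE 0.49, interval -0.94 to 1.41). These intervals hold differences of more than 2-fold in both directions for Mcm5 and Mcm6, and in the direction of serum for Mcm2, Mcm3 and Mcm7, so a similar level in the 2 conditions was not shown.

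Mcm4 (ENSMUSG00000022673, minus strand of chromosome 16, from 15623990 to 15637493) differed from the other subunits in how its 2i replicates compared. It had 4624 and 4374 normalized counts in the serum libraries against 2714 and 2804 in the 2i libraries. The groups did not overlap, and the 2i libraries lay 1.03-fold apart, the smallest gap among the members. The log2 difference was 0.70 (SE 0.44, 95% interval -0.35 to 1.75), with an unadjusted p = 0.154 and an adjusted p = 0.753 in limma. The nearest gene, Prkdc, starts 466 bases away on the other strand. It encodes the catalytic subunit of DNA-dependent protein kinase and had 1430 and 1518 normalized counts in the serum libraries against 1017 and 1529 in the 2i libraries, groups that overlapped.

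The 6 subunits were added up within each library to compare ring transcripts as a whole. The sum of normalized counts per kb of annotated exon was 9665 and 9971 in serum replicates 1 and 2, 5808 in 2i replicate 1 and 10647 in 2i replicate 2. The serum libraries lay close together, between the 2i libraries. Shares of this sum do not depend on how a library is scaled. Mcm3 held 23.3% and 24.1% of it in serum and 22.0% and 23.0% in 2i. Among the 6 subunits only its shares did not overlap between the groups, by a margin of 23.3% against 23.0%. Such shares were not taken for other genes. For normalized counts, 20.5% of all genes were higher in serum without overlap and 19.4% were lower. Mcm5 held 22.0%, 21.6% and 20.7% in serum replicates 1 and 2 and 2i replicate 1, but 29.1% in 2i replicate 2, while Mcm4 held 13.3%, 12.2% and 13.0% in those libraries and 7.34% in 2i replicate 2. No test was made of the shares, since an exact permutation test of 2 against 2 libraries has 3 splits and cannot give p below 0.33.

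CDC6 is an ATPase that binds the origin recognition complex and recruits the MCM ring with CDT1. Cdc6 (ENSMUSG00000017499, plus strand of chromosome 11, from 98769115 to 98785254) had 2548 and 2597 normalized counts in the serum libraries against 644 and 1275 in the 2i libraries. Both serum libraries exceeded both 2i libraries, by a log2 difference of 0.999 in the closest pair and 2.01 in the widest. The serum replicates were nearly equal, whereas the 2i replicates lay 1.98-fold apart. The fitted log2 difference was 1.505 (SE 0.50, 95% interval 0.31 to 2.70), with an unadjusted p = 0.0214 and an adjusted p = 0.753 in limma. On whole reads, the adjusted p was 0.146 in DESeq2 and 0.692 in edgeR.

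CDT1 is the loading factor that geminin inhibits and that is degraded in S-phase. Cdt1 (ENSMUSG00000006585, plus strand of chromosome 8, from 125091915 to 125097028) had 499 and 1322 normalized counts in the serum libraries against 772 and 1294 in the 2i libraries. It was the only member with a higher fitted level in 2i, at a log2 difference of -0.30 (SE 0.61, interval -1.76 to 1.16). The serum libraries enclosed the 2i libraries. Without serum replicate 1 the difference was 0.40, in the other direction. An annotated gene model, Gm20388, spans Cdt1 on the same strand and had 0 and 16.5 normalized counts in the serum libraries against 547 and 0 in the 2i libraries, and how reads were divided between them was not tested.

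Geminin is the inhibitor of CDT1 and accumulates from S-phase until mitosis. Gmnn (ENSMUSG00000006715, minus strand of chromosome 13, from 24843714 to 24853792) had 1724 and 2157 normalized counts in the serum libraries against 893 and 962 in the 2i libraries. Both serum libraries exceeded both 2i libraries, and the 2i replicates lay 1.08-fold apart. The fitted log2 difference was 1.06 (SE 0.42, 95% interval 0.03 to 2.08), with an unadjusted p = 0.0445 and an adjusted p = 0.753 in limma. The adjusted p was 0.147 in DESeq2 and 0.692 in edgeR.

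CDC45 is the factor whose binding turns the loaded ring into an active helicase. Cdc45 (ENSMUSG00000000028, minus strand of chromosome 16, from 18780540 to 18812080) had 967 and 914 normalized counts in the serum libraries against 427 and 1413 in the 2i libraries. The 2i libraries enclosed the serum libraries and lay 3.31-fold apart, the widest gap among the members. The log2 difference was 0.27 (SE 0.64, interval -1.26 to 1.81). Its annotated 5′ end overlaps that of Ufd1l on the other strand by 209 bases. Ufd1l, a cofactor of the VCP segregase, had 413 and 642 normalized counts in the serum libraries against 480 and 506 in the 2i libraries. Whether counting used the strand was not stated, so reads in such overlaps could not be assigned. The same holds for Mcm7, which overlaps Ap4m1 by 421 bases and Cops6 by 64 bases.

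**Figure D2:**
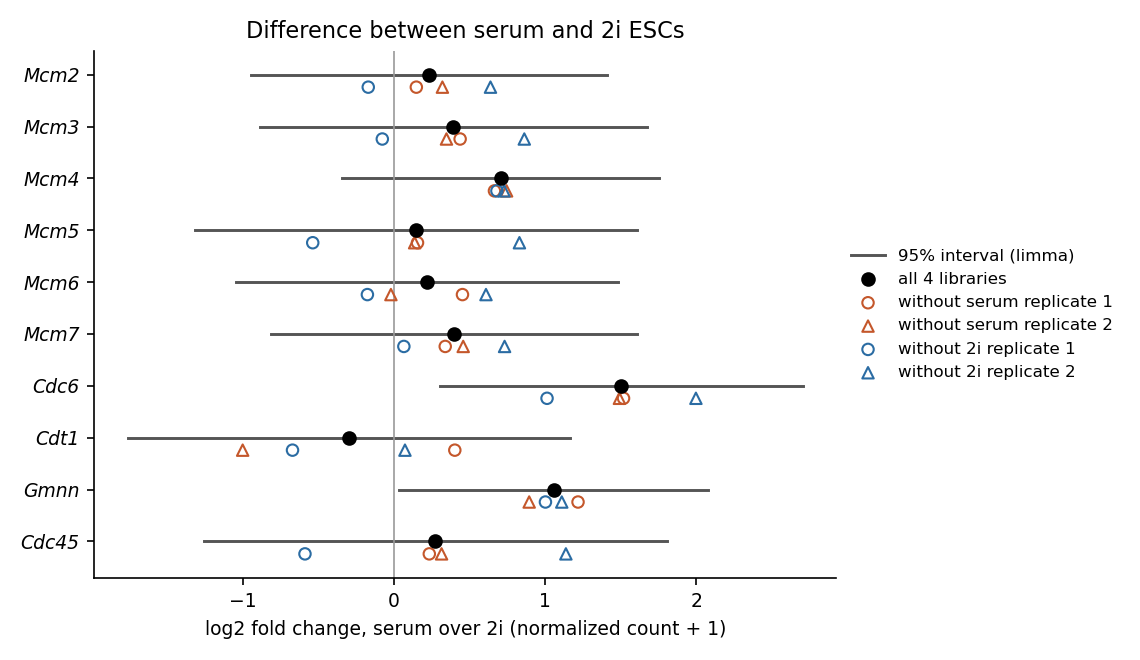
Log2 fold change of each member, serum over 2i (black point), with its 95% interval from limma (2 libraries per group), and the value after leaving out each library in turn (open symbols). The intervals of Cdc6 and Gmnn lie above 0 before adjustment over all genes and those of the other 8 members cross 0. In 10 of 10 members the value without 2i replicate 2 is larger than the value without 2i replicate 1. This restates that 2i replicate 2 lies above 2i replicate 1, as it does in 51.2% of all genes.

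Across the members, 9 of 10 had a higher fitted level in serum, beside 50.3% of all genes tested. Their median log2 fold change was 0.33, beside 0.0047 over all genes and 0.12 over genes with a mean of at least 200. Both serum libraries exceeded both 2i libraries in 4 members, Mcm4, Mcm7, Cdc6 and Gmnn, beside 20.5% of all genes, and the reverse held for 0 members beside 19.4%. Under TMM, upper quartile or quantile scaling the count was 3, without Mcm7, beside 16.7% to 22.4% of all genes. Over genes with a mean of at least 200 it was 4 beside 24.5%, and the reverse was 0 beside 14.7%. Groups overlap less often by construction when 1 of them holds a single library. Without 2i replicate 2 the count was 9 of 10 beside 38.4% of all genes, and the members' median was 0.78. Without 2i replicate 1, serum was above 2i in 4 members beside 38% and below it in 4 beside 40%, and the median was -0.12.

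The spread between the 2i replicates had the same sign throughout the members. 2i replicate 2 was above 2i replicate 1 in 10 of 10 members, beside 51.2% of all genes, and the median log2 gap was 0.80 in the members and 0.03 over all genes. In the related lists described below, the median 2i gap was 0.96 for origin recognition, 0.48 for origin firing and 0.33 for helicase unloading. It was 0.14 for the other MCM and geminin family genes and -0.02 for the turnover genes, so the gap was not particular to the members. The median gap between the serum replicates was 0.02 in the members. In 7 of 10 members the gap between 2i replicates was wider than the difference between conditions, beside 60.9% of all genes, and the other 3 were Mcm4, Cdc6 and Gmnn. Paired by replicate number, the members' median log2 difference, serum over 2i, was 0.80 for replicate 1 and 0.02 for replicate 2.

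Levels were compared between genes as normalized counts per kb of exon. In serum, Mcm3 was the highest at 2327 ± 103 per kb (SD, n = 2), followed by Mcm5 at 2137 ± 19.9 and Mcm7 at 1665 ± 96.9. Gmnn followed in serum, at 1632 ± 257, and its range overlapped those of its neighbours Mcm7 and Mcm6. Cdc6 at 492 ± 6.60, Cdc45 at 417 ± 16.6 and Cdt1 at 416 ± 266 were the lowest, and the last pair overlapped. In 2i, Mcm5 was the highest at 2151 ± 1343 per kb and Cdc6 was the lowest at 183 ± 85.3. Each neighbouring pair in the 2i order overlapped except Mcm4 at 769 ± 17.9 and Cdt1 at 472 ± 169.

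The level that the subunits shared within a library was set aside next. For this, the log2 value of each member was taken relative to the mean of Mcm2 to Mcm7 in the same library. This comparison was chosen after the values were seen and was not tested. Cdc6 stood at -1.16 and -1.16 in serum and at -2.42 and -2.21 in 2i, a difference of 1.16 between groups that did not overlap. Gmnn stood at -1.72 and -1.43 in serum and at -1.95 and -2.61 in 2i, a difference of 0.71, also without overlap. The relative values of the other members overlapped. No share over all genes was taken for relative values. For normalized counts, 20.5% of all genes were higher in serum without overlap and 19.4% were lower. Relative to the subunits, the 2i replicates lay closer together for Cdc6 and farther apart for Gmnn. Cdt1 stood at -3.50 in serum replicate 1 and between -2.19 and -2.14 in the other 3 libraries. Cdc45 stood at -2.55 and -2.67 in serum and at -3.01 and -2.06 in 2i, with overlap.

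**Figure D3:**
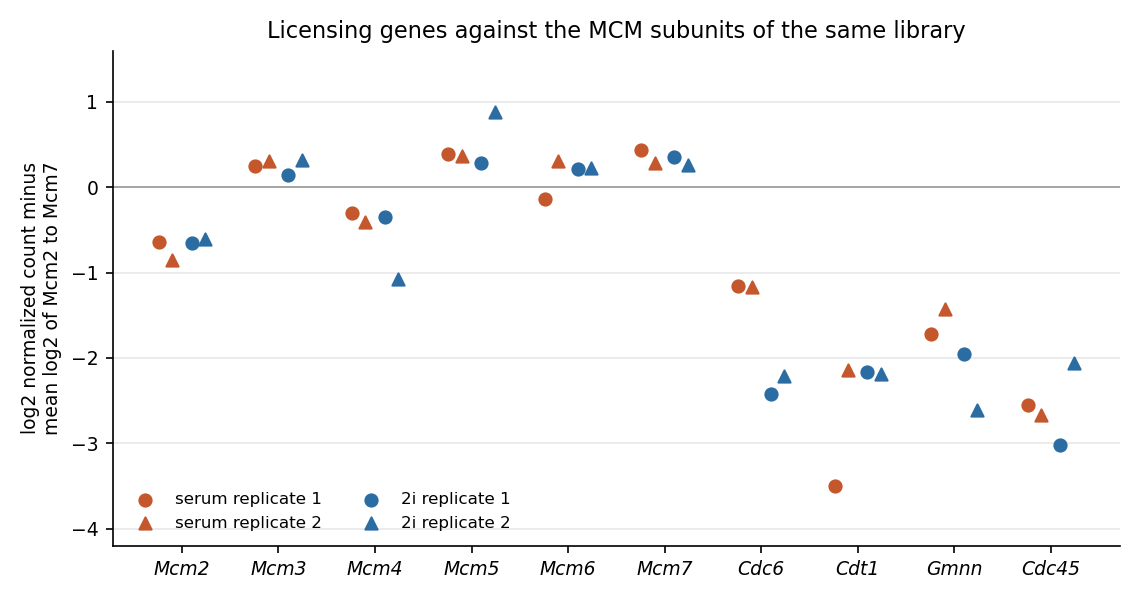
Log2 level of each of the 10 members minus the mean log2 level of Mcm2 to Mcm7 in the same library, with orange for serum and blue for 2i, circles for replicate 1 and triangles for replicate 2. Cdc6 is at -1.16 in both serum libraries and at -2.42 and -2.21 in the 2i libraries, and serum replicate 1 stands apart for Cdt1 at -3.50.

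The ratio of the loading factor to its inhibitor was taken within each library. Cdt1 over Gmnn was 0.290 and 0.613 in the serum libraries against 0.865 and 1.34 in the 2i libraries, so the groups did not overlap. The log2 difference, serum minus 2i, was -1.35, and it was -0.81 without serum replicate 1. The ratio of Cdc6 to Cdt1, added after the values were seen, was 5.10 and 1.96 in the serum libraries against 0.833 and 0.985 in the 2i libraries. Its log2 difference was 1.804. These are ratios of normalized counts with no correction for length, and they were not tested. How often the ratio of other gene pairs separates the groups was not counted.

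The subunits' mean log2 profile over the 4 libraries, centred on 0, was 0.16 and 0.19 in serum and -0.56 and 0.21 in 2i, so it was set by 2i replicate 1. The 5 genes nearest to this profile by root mean square distance over 4 libraries were Snx30 (0.0133), Pdpk1 (0.0320), Crlf3 (0.0347), Tmem5 (0.0348) and Wdr1 (0.0429). Among the subunits, which make up the profile, 25 genes were nearer to it than Mcm3 and 29 nearer than Mcm7. For Cdc6, 6354 genes were nearer. With 4 libraries this likeness is a description.

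The other genes of the licensing pathway were read from the same fit, and in each list 0 genes were called by limma. Of the 7 genes of the origin recognition list, 6 were higher in serum, with a median log2 fold change of 0.27. Their range ran from -0.22 for Lrwd1, which binds the origin recognition complex, to 0.86 for Orc2. The groups did not overlap, with serum higher, for 1 of the 7, Orc1, beside 20.5% of all genes.

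Of 13 origin firing genes, 12 were higher in serum, with a median of 0.40. Dbf4, the activator of the CDC7 kinase that phosphorylates the MCM ring, had 2252 and 2889 normalized counts in the serum libraries against 1197 and 823 in the 2i libraries, a log2 difference of 1.36 (unadjusted p = 0.0219 in limma). It was the only gene of the list past the unadjusted thresholds, 1 of 13 beside 2.97% of all genes. The groups did not overlap, with serum higher, for 8 of the 13 beside 20.5% of all genes, and Donson was lowest at -0.09.

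Of 11 genes for the turnover of licensing factors, 8 were higher in serum, with a median of 0.72, and 4 passed the unadjusted thresholds beside 2.97% of all genes. Skp2, the F-box protein that recognises phosphorylated CDT1, had 1129 and 1601 normalized counts in the serum libraries against 485 and 477 in the 2i libraries. Its log2 difference was 1.48, with an adjusted p = 0.753 in limma. DESeq2 on whole reads called it with an adjusted p = 0.0370, 1 of 11 beside 0.561% of all genes, and edgeR called 0 of 11. Fbxo5, an inhibitor of the APC/C ligase that degrades geminin, had 912 and 1779 in the serum libraries against 237 and 642 in the 2i libraries, a log2 difference of 1.71. Dtl, the substrate receptor of the CUL4 ligase for CDT1, had 2819 and 3864 in the serum libraries against 1776 and 980 in the 2i libraries, at 1.32. The other gene past the unadjusted thresholds was Kmt5a at 1.32, a histone methyltransferase that the same ligase degrades. Fzr1, an activator of APC/C, was lowest at -0.47, with 292 and 338 in the serum libraries against 541 and 353 in the 2i libraries. Its groups did not overlap, by a margin of 338 against 353. Across the list the groups did not overlap, with serum higher, for 7 of the 11 beside 20.5% of all genes. The reverse held for 1 of the 11, Fzr1, beside 19.4%.

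In the list of other MCM and geminin family genes, 4 of 6 were tested, 4 of 4 were higher in serum and the median was 0.46, from 0.17 for Mcm3ap to 0.69 for Mcm8. Of 8 helicase unloading genes, 7 were higher in serum with a median of 0.43, from -0.34 for Faf1 to 0.94 for Ubxn7. In both of these lists 0 genes passed the unadjusted thresholds.

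Genes of G2/M phase were read as a list of another phase of the cycle. Of 20, 19 were higher in serum, with a median log2 fold change of 1.62, and 14 passed the unadjusted thresholds beside 2.97% of all genes. Hmmr was highest at 2.48, with 3312 and 6253 normalized counts in the serum libraries against 1056 and 631 in the 2i libraries. Cdk1 was lowest at -0.01. The list's median had the same direction as the differences of Cdc6 and Gmnn, and the part of G2/M-phase RNA in the members' values was not tested. Between the 2i replicates the list went the other way from the members, with a median log2 gap, replicate 2 over replicate 1, of -0.51 against 0.80.

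**Figure D4:**
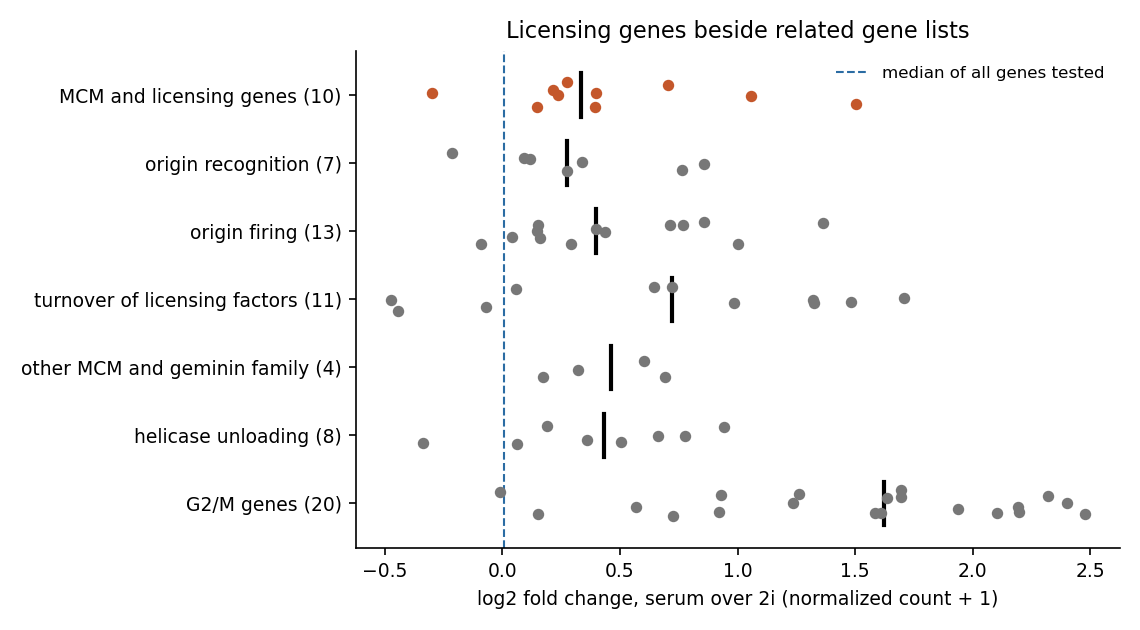
Log2 fold change, serum over 2i, of the 10 members (orange) and of the genes of 6 lists (grey), 1 point per gene, with the number tested in brackets, the median of each group as a black line and the median of all genes tested as a dashed line. The medians are 0.33 for the members, 0.27 to 0.72 for the 5 pathway lists and 1.62 for the G2/M genes, beside 0.0047 over all genes tested.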

How the data were processed

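Total RNA of sorted mouse ESCs was depleted of ribosomal RNA, primed at random positions and sequenced as single-end reads of 43 bases. The authors aligned reads with Bowtie to mm9 and estimated expression with MMSeq, without stating whether strand was used. In the deposited table each gene's count had been scaled by its library's DESeq2 size factor, a signal called normalized count here. All values of each library were whole multiples of 1 step, so whole reads were recovered (100% of values within 0.01).

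log2(normalized count + 1) was fitted with limma 3.58.1 (R 4.3.3, trend, no replicate term) over the 13005 genes with a mean of at least 50 in either group. edgeR 4.0.16 and DESeq2 1.42.0 on whole reads were alternatives, as were other pseudocounts (0.5 and 5), filters, scalings, a GC content and length correction (mgcv 1.9.3), the replicate number as a block and leaving out each library. Positions and exon lengths came from GENCODE vM1. The share of 43-base words found in no other protein-coding gene was 92.7% for Cdc45, 93.2% for Mcm7 and at least 99.4% for the other members. Pseudogenes and noncoding genes were not searched. The fit was tested on simulated data, with the pass mark applied where libraries of a group varied less than in these data. Passing therefore does not show how many real differences the fit finds here.

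All members are named, as are genes at the ends of each list, genes past the unadjusted thresholds, neighbouring genes and the 5 genes of nearest profile. Orc1 was named after its values were seen. Members and lists were chosen with earlier results of these data known.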

Additional observations from a re-analysis of the deposited data

How the results depend on the processing

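With the replicate number as a block, 44 genes were called higher in serum and 159 higher in 2i, and DESeq2 called 73 and 178, against 0 and 2 in limma without a block (386 and 390 at an unadjusted p under 0.05 and 2-fold). With the block and GC content and length corrected together, both counts were 0. The count higher in 2i was 4 at a mean of at least 200, 1 without a variance trend, 0 with GC content and length corrected, for protein-coding genes alone and in edgeR, and 0 to 8 when libraries were left out in turn. No member was called in any setting. By label the replicates of the 2 conditions share only a number. Their deviations from the group means correlated at 0.48 across genes, and the leading principal component separated replicate 1 from replicate 2 in both conditions. With the block, Cdc6 had an adjusted p = 0.207 in limma. What the replicates of a number share was not tested. Members past the unadjusted thresholds numbered 1 in place of 2 with the block, upper quartile or quantile scaling, no trend or edgeR, and 0 to 1 with a library left out. The block called 5 G2/M genes (0 with GC content and length also corrected) and DESeq2 7, and DESeq2 called 1 turnover gene.

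Leaving out a library moved the members' median between -0.12 and 0.78, the number of members with serum above 2i and no overlap between 4 and 9 (29.6% to 38.4% of all genes), and the number with the reverse between 0 and 4 (27.8% to 40% of all genes). List medians ranged from -0.015 to 0.70 for origin recognition, 0.17 to 0.73 for origin firing, 0.39 to 0.58 for the other MCM and geminin genes and 0.14 to 0.53 for unloading. Upper quartile scaling moved the median of all genes to -0.13, that of the members to 0.20 and that of the other MCM and geminin genes to 0.33. With GC content and length corrected, with or without the block, the median was 0.27 for the other MCM and geminin genes, 0.22 for unloading and 0.46 for turnover. Origin recognition was at 0.097 with quantile scaling. Cdc6 stayed between 1.01 and 2.00, Gmnn between 0.89 and 1.22 and Mcm4 between 0.66 and 0.75 with a library left out. The direction turned for Mcm2 (-0.17 to 0.64), Mcm3 (-0.077 to 0.86), Mcm5 (-0.54 to 0.83), Mcm6 (-0.18 to 0.61), Cdt1 (-1.0003 to 0.40) and Cdc45 (-0.59 to 1.14). It also turned for Mcm5 in edgeR (-0.034) and DESeq2 (-0.024), and, with GC content and length corrected with or without the block, for Mcm6 (-0.064) and Cdt1 (0.13). The cause was not tested. Each member had at least 411 whole reads in each library, and the part of read depth in the spread between replicates was not tested.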
